A study of Homo sapiens with 4 samples.

Results

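The 9 genes described here encode the receptor and signalling chain of type I interferon and its inhibitors: the receptor subunits IFNAR1 and IFNAR2, the kinases JAK1, JAK2 and TYK2, the transcription factor STAT2, and the inhibitors PTPN2, SOCS1 and SOCS3. Their H3K4me3 was read from the rows (merged peak regions) of an annotated peak table that name 1 of these genes as the nearest and lie within 5000 bases of its transcription start site (TSS). This gave 23 rows of the 34521 rows within 5000 bases of any TSS and of 110018 rows in all, and 9 of the 18346 genes with such a row. Every member had at least 1 row. The 4 libraries are H3K4me3 CUT&Tag profiles of HCC1428, an established luminal breast cancer line described as wild type, in which an antibody guides the transposase Tn5 to cut DNA beside the mark. In 2 libraries the cells had received the vehicle DMSO, and in the other 2 the KDM5 inhibitor C48 at 2.5 µM, and all were collected on day 5. The groups therefore stand for 1 cell line, 1 dose and 1 time. The labels call the 2 libraries of a group biological replicates but do not tie them to separate cultures, so p-values here reflect only the library-to-library spread, which may be technical.

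Type I interferon binds IFNAR1 and IFNAR2 at the cell surface. TYK2, bound to IFNAR1, and JAK1, bound to IFNAR2, then phosphorylate STAT proteins such as STAT2, which joins IRF9 in a complex that binds the interferon-stimulated response element (ISRE) in the promoters of interferon-stimulated genes, while JAK2 serves the interferon gamma receptor together with JAK1. PTPN2 removes phosphate from JAK1 and STAT proteins, and SOCS1 and SOCS3 bind and inhibit JAK kinases. H3K4me3 marks the promoters of active and poised genes, and KDM5 enzymes remove it. The comparison of C48 with DMSO asks how inhibition of that removal alters the mark at these promoters.

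Depth was inferred from the spacing of the values, taken as tags per 10 M. It ranged from 58.4 to 88.4 M aligned tags per library, the extremes being C48 replicate 1 and DMSO replicate 1. Values are given as deposited, in tags per 10 M (10000000) aligned tags. On the log scale, libraries of the same group correlated at 0.993 (DMSO) and 0.994 (C48) over rows, which are not independent, and libraries of unlike groups at 0.956 to 0.959. All 8 luminal epithelial markers had H3K4me3 near their TSS, with a summed signal of 6630.4 to 6701.0 in DMSO and 5048.6 to 5212.5 in C48. Of 6 blood and immune markers, PTPRC, CD3E, LYZ and SPI1 had no row, and the sum over the list was 17.8 to 20.03 in DMSO and 46.9 to 50.5 in C48, nearly all at CD14. Of 6 stromal and endothelial markers 4 had rows, and their sum was 898.2 to 947.7 in DMSO and 1064.5 to 1100.8 in C48, mostly at COL1A1. The part of other cell types in the results was not tested.

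Of the 23 rows, 12 had been called as peaks in at least 1 of the 4 libraries, 10 of them in all 4, and 11 had been called in none, since the merged table also draws on peaks of other cell lines. Rows of both kinds differ in sequence. The called rows held 6.1 to 13.7 CpG dinucleotides per 100 bases (median 9.35) and the rows called in no library 0.6 to 8.8 (median 4.2). The 120 central bases of 2 called rows and of 5 rows called in none follow, on hg38 and on the strand of the gene, with every CG in capitals. They are examples only, and each lies outside untranslated regions of the GENCODE annotation. For the rows called in none, the farthest from the start with a mean of at least 1 tag per 10 M was taken at each gene where C48 was the higher group. This passed over JAK2 at -427, with 8.8 CpG per 100 bases against 1.2 at -1278. At IFNAR2 it passed over the row at -210, with 3.0 against 6.0 at +784. Because only rows with C48 higher could enter, the direction of these 5 windows was fixed in advance, and they are no evidence of a gain. The JAK2 row at -1278 passed the mean of 1 only through C48 (0.965 in DMSO, 7.36 in C48). Of the called rows not printed, STAT2 at +65 holds 6 CG in its 120 central bases.
JAK1 row at +697, chr1:65066990-65067109, minus strand: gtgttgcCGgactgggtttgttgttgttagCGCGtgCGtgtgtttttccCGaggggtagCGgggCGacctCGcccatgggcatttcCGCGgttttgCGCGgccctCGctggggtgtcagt
IFNAR2 row at +358, chr21:33230237-33230356, plus strand: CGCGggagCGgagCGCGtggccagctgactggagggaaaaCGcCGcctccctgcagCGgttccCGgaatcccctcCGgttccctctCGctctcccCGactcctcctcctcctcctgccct
IFNAR2 row at +784, chr21:33230663-33230782, plus strand: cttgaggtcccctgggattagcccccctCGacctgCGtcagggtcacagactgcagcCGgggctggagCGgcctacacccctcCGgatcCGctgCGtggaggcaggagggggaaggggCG
JAK1 row at +1658, chr1:65066029-65066148, minus strand: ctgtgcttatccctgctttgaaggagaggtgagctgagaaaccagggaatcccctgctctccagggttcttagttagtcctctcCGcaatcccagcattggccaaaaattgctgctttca
JAK2 row at -1278, chr9:4983749-4983868, plus strand: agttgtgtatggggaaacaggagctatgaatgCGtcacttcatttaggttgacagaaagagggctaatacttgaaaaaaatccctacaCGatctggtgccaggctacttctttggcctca
TYK2 row at -454, chr19:10380967-10381086, minus strand: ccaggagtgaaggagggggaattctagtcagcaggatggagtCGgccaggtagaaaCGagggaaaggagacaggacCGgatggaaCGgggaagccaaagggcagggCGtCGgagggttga
PTPN2 row at +982, chr18:12883196-12883315, minus strand: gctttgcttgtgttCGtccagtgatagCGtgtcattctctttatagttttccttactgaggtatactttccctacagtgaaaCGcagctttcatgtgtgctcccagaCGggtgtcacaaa
The first pair holds 13 and 12 CG in 120 bases, and the other windows hold 8, 1, 2, 6 and 4 in the order shown.

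Summed over all its rows, the H3K4me3 of each of the 9 members was lower in C48 with TMM scaling, which sets libraries level on the bulk of the rows. Log2 fold changes of these gene sums ran from -0.36 at IFNAR2 to -0.88 at PTPN2, with a median of -0.65, and all 9 passed the test (limma-trend on log2(scaled value + 1), Benjamini-Hochberg adjusted p under 0.05). In bulk libraries, fewer cells with the mark and less mark per cell cannot be told apart. Over all 15615 genes tested, 60.6% were called lower and 21.5% higher, with a median of -0.32. The directions rest on the scaling, since moving from TMM to tags per 10 M adds about 0.34 to every log2 fold change and scaling on 83 ribosomal protein promoter rows adds 0.74. Per 10 M tags 6 members were called lower and IFNAR2 (-0.03), JAK2 (-0.11) and TYK2 (-0.15) were not called, with a member median of -0.32 against 0.02 over all genes, of which 37.2% were called lower and 39.5% higher. On the ribosomal protein promoters 5 members were called higher (IFNAR1, IFNAR2, JAK2, TYK2 and SOCS3) and PTPN2 lower, with a median of 0.09 against 0.42 over all genes, of which 76.3% were called higher and 6.57% lower. By construction these 3 scales shift members and other genes by the same amount. Cyclic loess, which scales by signal level, gave medians of -0.17 and -0.02. No fly spike-in counts were used here, so none of these scales can show a gain or loss common to all promoters. The paper reports fewer fly reads in C48 than in DMSO libraries. It holds that leaving out the spike-in undercounts H3K4me3 peaks after C48. By immunoblot, at a later time, it reports more H3K4me3 in C48-treated HCC1428 cells. After spike-in normalization it reports increased H3K4me3 in promoter regions, with interferon-stimulated genes among the genes that gained. Whether the members are among those promoters was not checked here. Lower and loss in this report therefore mean lower relative to the scale named.

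**Figure D1:**
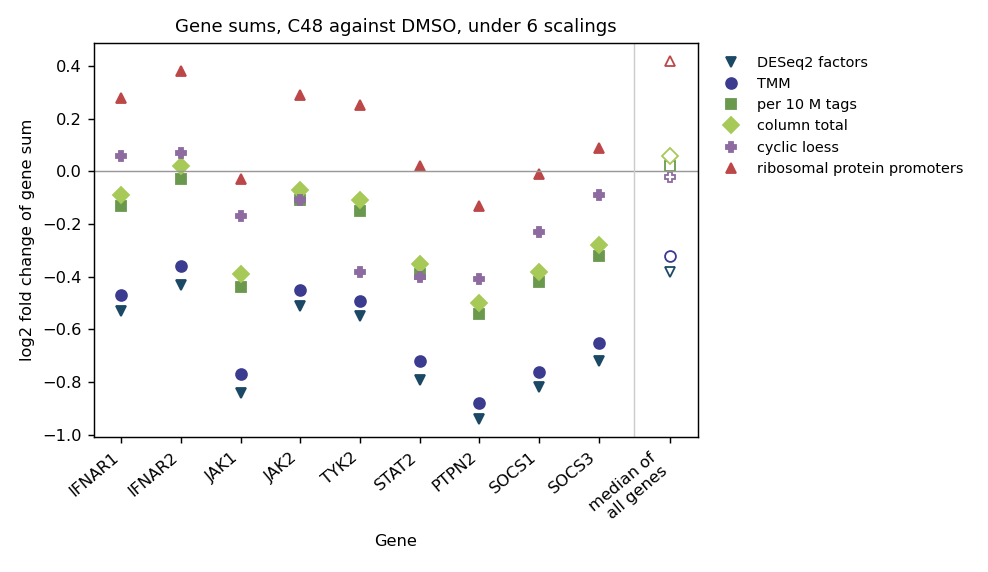
Log2 fold change of the summed H3K4me3 (y axis, C48 against DMSO, n = 2 libraries per group) of the 9 members and the median of all genes (x axis), with 1 symbol per scaling and open symbols for the median. All members are below 0 with TMM and DESeq2 factors, 5 are called higher on ribosomal protein promoters, and PTPN2 (-0.13 there) is below 0 under all 6 scalings, as are JAK1 and SOCS1, which are at -0.03 and -0.01 on that scaling and not called.

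Row by row, the test over the rows called in at least 1 library (34154 rows) found all 12 such member rows lower with TMM, against 36.5% lower and 36.3% higher over all rows tested (median 0.06). Of the 16874 tested rows within 500 bases of a TSS, called or not, 61.7% were lower (median -0.38), and 10 of the 12 called member rows lie in that range. When the 11 uncalled rows were admitted as well, a choice made after seeing the data, 20 member rows could be tested among 43712, of which 34.2% were called lower and 37.3% higher. Then 14 were lower, 0 higher and 6 not called with TMM, 4 were higher and 11 lower per 10 M tags, and 12 were higher and 3 lower on ribosomal protein promoters. Over all rows of that test 54.7% were called higher and 20.9% lower in the deposited unit, while scaling on the ribosomal protein promoters gave 78.7% higher and 5.32% lower. The other 3 member rows had a mean under 5 tags per 10 M and were not tested. In all, 3 rows were called lower under all of these scalings and under cyclic loess, namely JAK1 at +697, PTPN2 at +98 and SOCS1 at +372. Below, adjusted p-values of rows called in at least 1 library come from the test over such rows, and those of the other rows from the test over rows of both kinds.

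**Figure D2:**
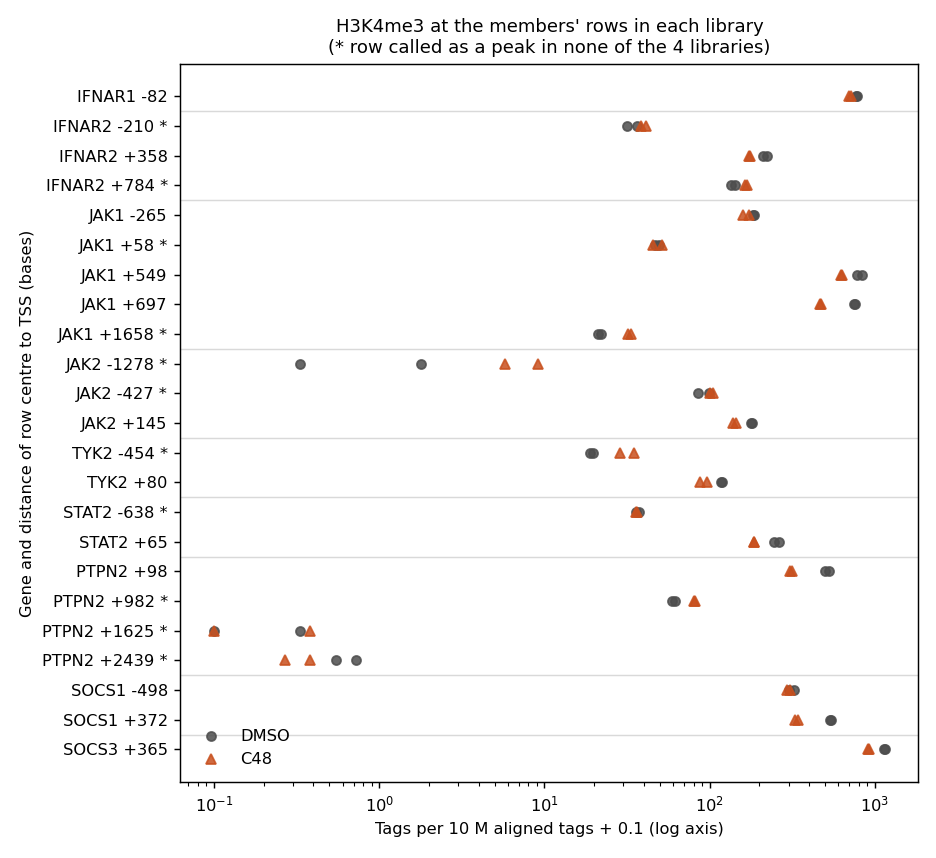
H3K4me3 at each of the 23 member rows (y axis, gene and distance of the row centre to the TSS in bases) in tags per 10 M aligned tags plus 0.1 (x axis, log scale), with 1 symbol per library. Asterisks mark the rows called as peaks in no library. In the deposited unit, 11 of the 20 tested member rows were called lower and 4 higher, against 20.9% and 54.7% of all tested rows. Of all tested rows within 500 bases of a TSS, 41.3% were called lower and 33.8% higher. From there to 1000 bases the shares were 17.6% and 58.7%.

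Of the receptor subunits, IFNAR1, the chain that holds TYK2, had a single row over its start (chr21:33324460-33325316, promoter-TSS, centre 82 bases upstream, at -82), which also holds the start of the unnamed gene ENSG00000289238. It carried 766 and 781 tags per 10 M in DMSO and 700.1 and 712 in C48. The C48 libraries were the lower ones, without overlap. With TMM the log2 fold change was -0.47 (SE 0.04, limma adjusted p = 1.37e-15) and per 10 M tags -0.13, but on ribosomal protein promoters it was 0.28 and with cyclic loess 0.20, both called higher. IFNAR1 thus had the smallest loss among the members' strongest rows on the TMM scale.

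IFNAR2, the chain that holds JAK1, had 3 rows, of which only the middle one was called in any library. That row (chr21:33230064-33230528, intron 1, at +358) carried 221 and 209.85 tags per 10 M in DMSO and 176 and 173 in C48, without overlap, and also holds the start of the readthrough gene IFNAR2-IL10RB. It was lower with TMM (log2 fold change -0.64, SE 0.07, limma adjusted p = 2.25e-12) and per 10 M tags (-0.30), and at 0.10 and not called on ribosomal protein promoters. The downstream row (chr21:33230590-33230855, intron 1, at +784) went the other way in the deposited values, with 142 and 134 in DMSO and 168 and 163 in C48. It was not called with TMM (-0.07, limma adjusted p = 0.428) and was higher per 10 M tags (0.26, 0.00191). The upstream row (chr21:33229554-33229817, promoter-TSS, at -210) held 36.0 and 31.4 in DMSO and 38.4 and 41.0 in C48 and was called on neither scale (-0.09 and 0.23). On ribosomal protein promoters that row was called higher (0.63, limma adjusted p = 1.05e-04) and with cyclic loess lower (-0.43, 0.00837). The near-equal gene sum of IFNAR2 per 10 M tags therefore joined a called loss in the middle row to a called gain in the row next to it.

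Among the kinases, JAK1, which serves all interferon receptors and many cytokine receptors, had the most rows, 5, at 2 start regions that lie 98912 bases apart. At the upstream start the strongest row (chr1:65066616-65067483, intron 1, at +697) carried 751 and 758 tags per 10 M in DMSO and 462 and 473 in C48. The level in C48 was lower with TMM (log2 fold change -1.03, SE 0.05, limma adjusted p = 7.29e-30), on ribosomal protein promoters (-0.28) and per 10 M tags (-0.69). The promoter row before it (chr1:65067791-65068232, at -265) carried 184 and 185 in DMSO and 172 and 159 in C48, with log2 fold changes of -0.49 with TMM (SE 0.07, limma adjusted p = 2.58e-08), -0.15 per 10 M tags (limma adjusted p = 0.0492) and 0.25, called higher, on ribosomal protein promoters. Scaled on the column total, the sum of each library over the rows, it was not called (-0.11, limma adjusted p = 0.148). It was called as a peak in both C48 libraries and in 1 DMSO library, and it also holds the start of the unnamed gene ENSG00000288804. The weak row downstream (chr1:65065957-65066220, at +1658), one of the CpG-poor windows printed above, held 21.05 and 22.0 in DMSO and 32.0 and 33.4 in C48, and was not called with TMM (0.26, limma adjusted p = 0.151) but higher per 10 M tags (0.58, 0.00145).

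At the downstream start of JAK1, the main row (chr1:64965384-64966617, intron 2 of the longer transcript, at +549) carried 780.0 and 835 tags per 10 M in DMSO and 631 and 625 in C48. This row was lower with TMM (-0.70, SE 0.04, limma adjusted p = 1.12e-22) and per 10 M tags (-0.36), and at 0.05 and not called on ribosomal protein promoters. The small row at +58 (chr1:64966712-64967044) held 49.6 and 46.9 in DMSO and 51.2 and 45.0 in C48. It was called higher on ribosomal protein promoters (0.39, limma adjusted p = 0.00527) and lower with cyclic loess (-0.58, 1.14e-04). The groups overlapped there, and its TMM call (-0.34, limma adjusted p = 0.0166) was lost without DMSO replicate 1 (0.0697) or C48 replicate 2 (0.163). In GENCODE 16 transcripts of JAK1 start under the row at +549 and 2 under the row at +58. Of the strong rows at the 2 starts, the upstream one lost more, though the difference between them was not tested.

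JAK2, which acts at the interferon gamma receptor and at hormone and cytokine receptors, had 3 rows. The row over the start (chr9:4985058-4985722, 5' UTR, at +145) carried 178 and 179.98 tags per 10 M in DMSO and 139 and 144 in C48. The level was lower with TMM (-0.67, SE 0.08, limma adjusted p = 5.59e-12) and per 10 M tags (-0.34), and at 0.07 and not called on ribosomal protein promoters. The row before it (chr9:4984398-4984920, promoter-TSS, at -427) held 84.75 and 98.3 in DMSO and 99.9 and 104 in C48, and was called neither with TMM (-0.17, limma adjusted p = 0.098) nor per 10 M tags (0.16, 0.125). With TMM it was called lower without DMSO replicate 1 (-0.28, limma adjusted p = 0.0202), and it was at -0.06 without DMSO replicate 2. With DESeq2 factors it was called lower as well (-0.24, limma adjusted p = 0.0245), but on ribosomal protein promoters it was called higher (0.56, 4.4e-07). The farthest row, in intergenic sequence (chr9:4983687-4983930, at -1278), held 2 and 11 tags in DMSO and 53 and 41 in C48, or 0.23 and 1.70 against 9.08 and 5.64 per 10 M. Its mean was under 5, so it was not tested and no fold is given.

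TYK2, the kinase on IFNAR1, had 2 rows with a sum of 137.2 ± 0.735 tags per 10 M in DMSO and 123.6 ± 11.5 in C48 (SD, n = 2). The row over the start (chr19:10380231-10380754, promoter-TSS, at +80) carried 117 and 119 in DMSO and 86.85 and 96.7 in C48. It was lower with TMM (-0.69, SE 0.09, limma adjusted p = 1.01e-09) and per 10 M tags (-0.36), and at 0.04 and not called on ribosomal protein promoters. The upstream row (chr19:10380871-10381181, promoter-TSS, at -454) rose in the deposited unit, from 19.7 and 18.9 to 28.6 and 34.95 (0.69 per 10 M tags, limma adjusted p = 4.14e-04). With TMM the same row was at 0.36 and just missed the threshold (limma adjusted p = 0.0543), and it passed without C48 replicate 1 (0.51, 0.0399).

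The transducer STAT2, which gives the interferon-activated complex its main transactivation domain, had 2 rows. The row over the start (chr12:56359766-56360319, promoter-TSS, at +65) carried 264 and 245 tags per 10 M in DMSO and 186 and 185.5 in C48. The row was lower with TMM (-0.79, SE 0.07, limma adjusted p = 1.61e-16) and per 10 M tags (-0.45), and at -0.04 and not called on ribosomal protein promoters. The upstream row (chr12:56360580-56360910, promoter-TSS, at -638) held 37.3 and 35.75 in DMSO and 35.80 and 36.2 in C48, and the groups overlapped. It was called higher on ribosomal protein promoters (0.38, limma adjusted p = 0.0168) and lower with cyclic loess (-0.69, 5.41e-05). Its TMM call (-0.35, limma adjusted p = 0.0267) was lost without DMSO replicate 1 (0.0838), C48 replicate 1 (0.108) or C48 replicate 2 (0.0756).

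The inhibitors held 2 of the 3 rows called lower under every scaling tried. PTPN2, a tyrosine phosphatase that acts on JAK1 and STAT proteins, carried 524 and 499 tags per 10 M over its start in DMSO and 308 and 315 in C48 (chr18:12883532-12884746, promoter-TSS, at +98). This was the largest loss of any member row on the TMM scale (-1.05, SE 0.05, limma adjusted p = 4.27e-27), and the row was also lower on ribosomal protein promoters (-0.31) and per 10 M tags (-0.71). The row next to it in intron 1 (chr18:12883017-12883494, at +982) has the repeat L1ME1, a LINE element, as its detailed annotation. That row held 59.3 and 61.3 in DMSO and 81.9 and 80.6 in C48. It was not called with TMM (0.09, limma adjusted p = 0.437) and was higher per 10 M tags (0.42, 4.3e-04). The other 2 rows of PTPN2 belong to an alternate start inside the gene and held 0 to 4 tags in any library, so that they were not tested.

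SOCS1, which binds JAK kinases and is itself induced by interferon, carried 542 and 534 tags per 10 M in the row over its gene body in DMSO and 328 and 342 in C48 (chr16:11255420-11256201, intron 1, at +372). C48 was the lower group with TMM (-1.02, SE 0.05, limma adjusted p = 6e-27), on ribosomal protein promoters (-0.27) and per 10 M tags (-0.68). The upstream row (chr16:11256341-11257019, promoter-TSS, at -498) held 325 and 302 in DMSO and 294 and 306 in C48, so that the groups overlapped. With TMM it was lower (-0.40, SE 0.06, limma adjusted p = 2.03e-08), per 10 M tags it was not called (-0.06), and on ribosomal protein promoters it was higher (0.34). It had been called as a peak in both C48 libraries and in neither DMSO library, although its signal was not above that in DMSO.

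SOCS3, the inhibitor best known for limiting signals through gp130 receptors, had a single row (chr17:78359217-78360211, at +365) with 1149 and 1137 tags per 10 M in DMSO and 909 and 926 in C48. It was lower with TMM (-0.65, SE 0.04, limma adjusted p = 2.28e-24) and per 10 M tags (-0.32), and higher on ribosomal protein promoters (0.09, limma adjusted p = 0.0217 over rows of both kinds). On each of these scales the log2 fold changes of PTPN2 at +98 and SOCS1 at +372 were below that of SOCS3, a difference that was not tested.

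**Figure D3:**
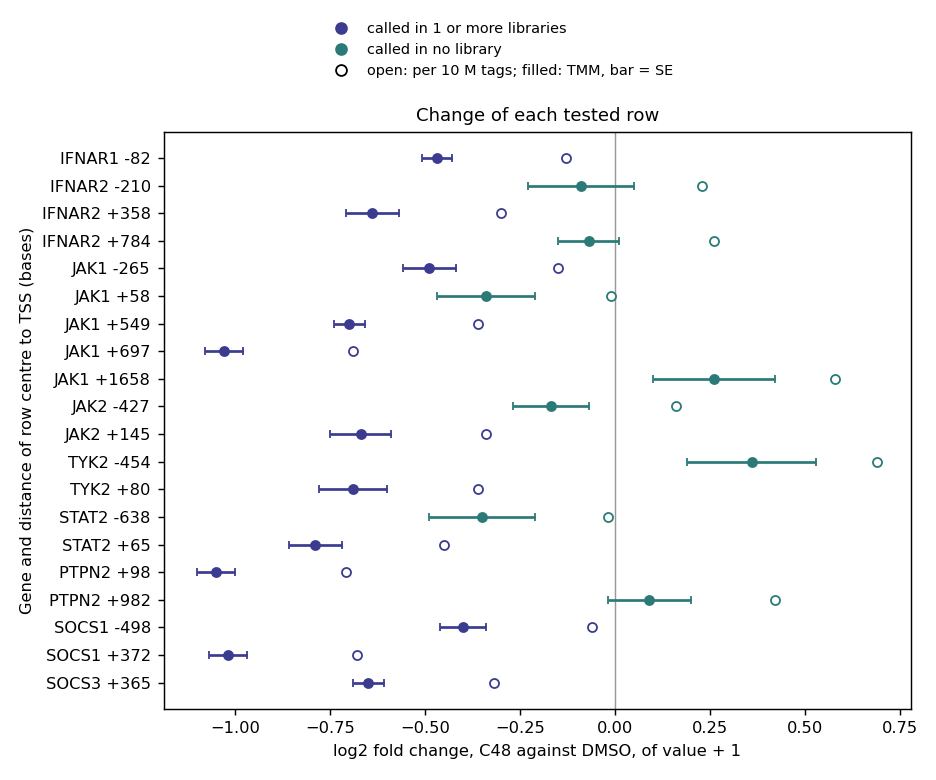
Log2 fold change of the 20 tested member rows (x axis, C48 against DMSO, n = 2 libraries per group) by gene and distance of the row centre to the TSS in bases (y axis). Filled points with SE bars are on the TMM scale and open points per 10 M tags; the rows called in no library (green) lie at -0.35 to 0.36 with TMM and at -0.02 to 0.69 per 10 M tags, and the called rows (blue) are below 0 on both, though 8 of the 12 lie above 0 on ribosomal protein promoters.

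The distribution of signal within a gene does not depend on a single factor applied to a library, though it does change under cyclic loess. The share of a gene's signal that lay outside its strongest row is given here for the 7 members with more than 1 row. A test of the ratio of these parts, given below, called 6 of them higher and JAK1 lower. Over all genes it called 65.4% higher and 10.6% lower, so rises are the common case. At PTPN2 the share was 10.26% and 11.03% in DMSO and 21.04% and 20.48% in C48. At TYK2 it was 14.4% and 13.7% against 24.8% and 26.5%. SOCS1 had 37.5% and 36.15% against 47.3% and 47.2%, while its upstream row was not called per 10 M tags. IFNAR2 had 44.55% and 44.08% against 53.98% and 54.18%, JAK2 32.4% and 35.7% against 44.01% and 43.34%, and STAT2 12.4% and 12.7% against 16.1% and 16.3%. JAK1 had 56.3% and 54.8% against 53.21% and 53.22%, where the rows outside the strongest include the strong row of its other start. Taken start by start, the share outside the strongest row of JAK1 was 21.4% and 21.4% in DMSO and 30.6% and 28.9% in C48 upstream, and 5.97% and 5.32% against 7.51% and 6.72% downstream, a split made after the values were seen and not tested. IFNAR1 and SOCS3 have 1 row each and no such share.

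**Figure D4:**
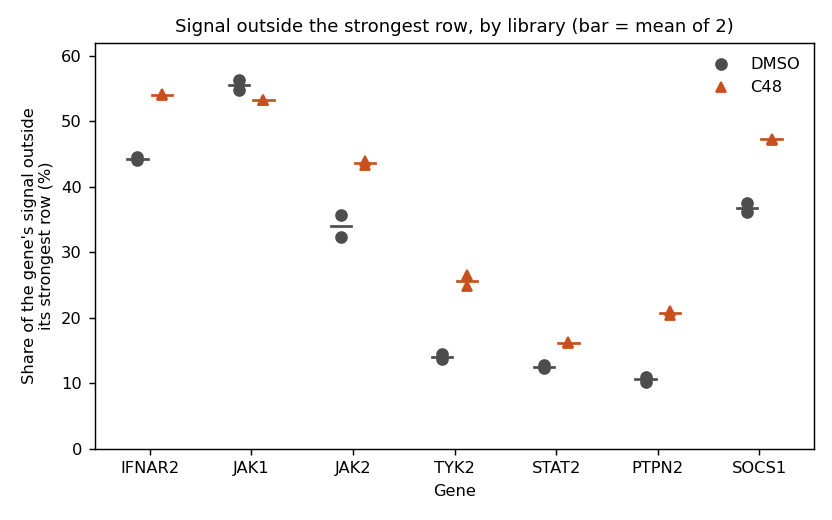
Share of the H3K4me3 signal within 5000 bases of the TSS that lay outside the strongest row (y axis, percent) for the 7 members with 2 or more rows (x axis), with 1 point per library and a bar at the mean of 2. PTPN2 lay at 20.48% to 21.04% in C48 against 10.26% to 11.03% in DMSO, and JAK1 at 53.21% to 53.22% against 54.8% to 56.32%. The test of the ratio to the strongest row called 6 of these 7 members higher and JAK1 lower, against 65.4% and 10.6% of all genes.

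The first of a pair of ratios compared rows 500 to 5000 bases from the TSS with rows within 500 bases, over the 5609 genes with enough signal in both, 4 of them members. The ratio was higher in C48 at PTPN2 (log2 change 1.13, SE 0.10, limma adjusted p = 2.23e-08), IFNAR2 (0.48, SE 0.10, 1.8e-04) and STAT2 (0.44, SE 0.15, 0.0133), and lower at JAK1 (-0.37, SE 0.06, 3.16e-05), where the distant rows include the strongest rows of both starts. These directions rest on the near limit and on the scaling. With near rows reaching to 1000 bases JAK1, then the only member that could be tested, was higher (1.05, limma adjusted p = 9.23e-07). With cyclic loess JAK1 was at -0.04 and not called (limma adjusted p = 0.594) and STAT2 was lower (-0.40, 0.0257), while PTPN2 (0.37, 0.00439) and IFNAR2 (0.28, 0.0168) stayed higher. The call at STAT2 was lost without C48 replicate 1 (limma adjusted p = 0.0694) or C48 replicate 2 (0.0832). Over all genes 74.2% were called higher and 6.97% lower, with a median of 0.69, so 3 of 4 is near the share of all genes.

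The second ratio, added after seeing that 5 members lacked a distant row with enough signal, compared all other rows with the strongest row over 7737 genes. It was higher at 6 of 7 members and lower at JAK1 (-0.14, SE 0.05, limma adjusted p = 0.0191), against 65.4% higher and 10.6% lower over all genes, with a median of 0.59 in the members and 0.55 in all genes. The changes were 1.13 at PTPN2, 1.06 at TYK2, 0.62 at SOCS1, 0.59 at JAK2, 0.56 at IFNAR2 and 0.44 at STAT2. With cyclic loess, also added after seeing the data, TYK2 (0.58), IFNAR2 (0.55), SOCS1 (0.55), PTPN2 (0.45) and JAK2 (0.37) were called higher. JAK1 (-0.11, limma adjusted p = 0.0551) and STAT2 (-0.28, 0.102) were not called. The median of all genes was 0.14, and the share of all genes called on that scale was not recorded. In all tested rows the same order appeared by distance, with TMM medians of -0.38 within 500 bases, 0.05 from there to 1000 bases and 0.56 from 1000 to 5000.

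**Figure D5:**
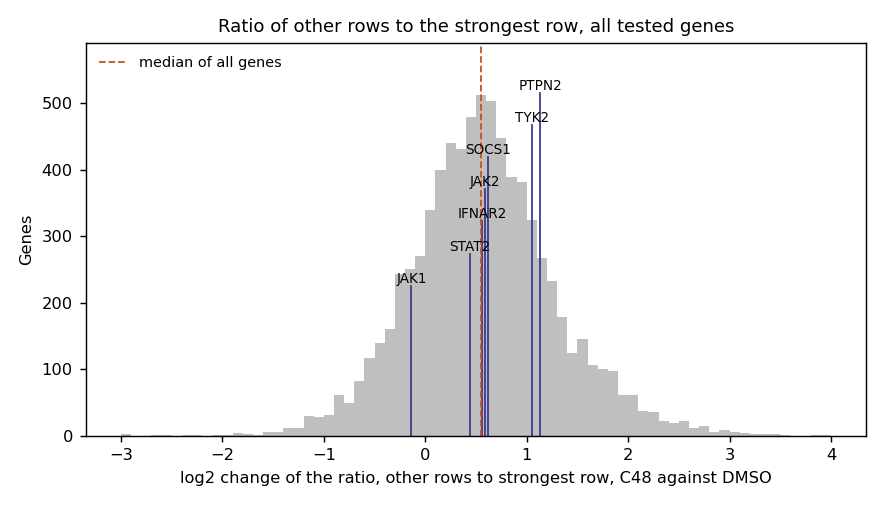
Distribution over 7737 genes (y axis, number of genes) of the log2 change in the ratio of all other rows to the strongest row (x axis, C48 against DMSO, n = 2 libraries per group), with members as labelled lines and the median of all genes dashed. PTPN2 (1.13) and TYK2 (1.06) lie to the right of the median of 0.55, JAK1 (-0.14) lies below 0, and the other 4 lie between 0.44 and 0.62.

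Across the 20 tested member rows the TMM log2 fold change was lower where the row had more CpG (Spearman's rho -0.79, Pearson's r -0.80) and where it had more signal (rho -0.75, and r -0.75 on log2 signal), and CpG density and signal went together (rho 0.83, r 0.84). These are descriptions over rows that share libraries and genes, and the part of CpG density apart from signal was not tested. Over all rows the median was 8.0 CpG per 100 bases within 500 bases of a TSS, 5.5 from there to 1000 bases and 3.9 from 1000 to 5000. No GENCODE transcript of another gene starts in a member row called in no library.

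The RefSeq promoters (GRCh38.p14, 250 bases before to 50 after each start) were searched on both strands for an ISRE core, GAAANNGAAA, and for the STAT site TTCNNNGAA (GAS); 8 of the 9 members, all but IFNAR2, were matched by symbol, PTPN2 at its alternate start only. An ISRE core is in 3.57% and a GAS site in 7.66% of 35116 promoters. Among the members the SOCS1 promoter held 1 ISRE core, and no GAS site was found in any member promoter. The 250 bases upstream of the SOCS1 start are printed with that match in capitals, from base -113 to base -104 of the start; they span the gap between the SOCS1 rows at +372 and at -498 and the near edge of the latter.
SOCS1 promoter, GRCh38.p14, chr16:11256205-11256454, minus strand: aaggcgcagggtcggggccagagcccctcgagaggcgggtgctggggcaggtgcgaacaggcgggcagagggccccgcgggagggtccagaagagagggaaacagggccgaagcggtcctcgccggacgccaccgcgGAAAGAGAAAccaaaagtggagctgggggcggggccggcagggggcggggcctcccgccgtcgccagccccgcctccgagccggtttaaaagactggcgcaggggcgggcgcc
Within the rows themselves, which are of unequal length, a GAS site was found once in IFNAR2 at +358, JAK1 at -265 and PTPN2 at +982 and at 2 places in SOCS3 at +365, and no ISRE core was found. These are matches of letters only.

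Per 1000 bases of row, the strongest row of each member ranked from SOCS3 (1148.8 tags per 10 M in DMSO) through IFNAR1 (902.7), SOCS1 (688.0), JAK1 (654.3), IFNAR2 (463.4), STAT2 (459.5), PTPN2 (421.2) and JAK2 (268.8) to TYK2 (225.0). IFNAR2 and STAT2 overlapped in DMSO, as their libraries read 475.5 and 451.3 against 477.1 and 441.9. In C48 the order was the same but for SOCS1 (428.4) and JAK1 (508.8), which changed places without overlap between their libraries. The genes whose change was most like that of PTPN2, with the largest rise in the first ratio, were KIF21A, ZNF746 and PCNT, by Euclidean distances of 0.0068, 0.028 and 0.029 in the TMM log2 fold changes of near and distant rows over 4384 genes and 4 libraries. Those nearest to JAK1, with the only fall in that ratio at the 500-base limit, were YAP1, ZNF827 and MAN1C1 at 0.0028, 0.026 and 0.027.

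A wider list of 47 further JAK-STAT genes, which holds other cytokine receptors, JAK3, other STAT genes, further inhibitors and cofactors, gave 43 genes with enough signal. With TMM 6 were higher, 28 lower and 9 not called (median -0.39), against 21.5% higher, 60.6% lower and a median of -0.32 over all genes. Per 10 M tags 16 were higher and 21 lower (median -0.06), against 39.5% higher, 37.2% lower and a median of 0.02. The genes named next had the largest falls and rises among those called with a mean of at least 20 tags per 10 M. DUSP3, a phosphatase, had a log2 fold change of -1.09 with TMM, SH2B3, an adaptor that restrains JAK2, -1.04, SOCS5 -0.99 and PIAS3, which inhibits STAT3, -0.99, and all 4 were also lower on ribosomal protein promoters (-0.35 to -0.24). The largest rise was at OSMR, the oncostatin M receptor, from 19.58 and 18.26 tags per 10 M in DMSO to 46.77 and 53.94 in C48 (1.04, SE 0.16, limma adjusted p = 2.32e-10). PDLIM2, a listed inhibitor that promotes STAT degradation, was at 0.45, the interleukin receptor IL10RA at 0.29 and the phosphatase PTPN6, also a listed inhibitor, at 0.22, and these 4 were higher on every scaling tried. The call at IL10RA was lost without DMSO replicate 1 (limma adjusted p = 0.0996) or C48 replicate 2 (0.222).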

How the data were processed

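H3K4me3 CUT&Tag libraries of HCC1428 cells were analysed (2 DMSO, 2 C48, grouped by sample title). The tables tag C48 columns as GNE, matched through the sample descriptions. Reads had been aligned by the authors with Bowtie2 2.3.4.1 to hg38 (submitters' processing notes), called peaks per library with HOMER (version not given in the sources used here) and merged them over several cell lines. The names of the sample columns give no unit. The deposited values were taken as a signal per row in HOMER tags per 10 M aligned tags, without spike-in scaling. Among non-zero entries of few tags, the only ones checked, values were whole multiples of 1 tag for 100% (tolerance 0.1 tags). This would hold with any constant factor per library, so it does not show the unit. A deposited repeat table was not used here.

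Rows were assigned by gene name and distance to the TSS (5000 bases or less). Values were scaled by edgeR 4.0.16 TMM factors and tested with limma-trend 3.58.1 (R 4.3.3) on log2(value + 1), keeping a mean of at least 5; fold changes on this scale understate changes of weak rows. The tested values were of 3 kinds, each over all features: single rows called in at least 1 library, sums of rows per gene, and ratios of rows beyond 500 bases to rows within them. Calls are at a Benjamini-Hochberg adjusted p of 0.05. The design named TMM because spike-in counts were not used here. edgeR and DESeq2 1.42.0 on recovered tags were alternatives. On simulated tags, 100% of 2-fold and 49.3% of 1.25-fold changes were recovered in the row test. In that simulation few rows changed, up or down, the spread was set in advance and no scaling was applied. In the real libraries 36.5% of rows were called lower and 36.3% higher, and directions rest on the scaling. The recovery therefore does not carry over to them. GC, CpG and motifs came from hg38, GENCODE and RefSeq with Python 3.11.15, numpy 2.4.6 and pandas 2.3.3, and plots from matplotlib 3.10.9.

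Named are all 9 members, the 4 largest rises and 4 largest falls among called genes of the wider list with a mean of at least 20, and the 3 genes nearest to the members with the largest rise and fall in the ratio. Members and lists were chosen with earlier results of these data known.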

Additional observations from a re-analysis of the deposited data

How the results depend on the processing

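Directions of the members rest on the scaling, and with 2 libraries per group no spread beyond these 4 libraries was measured. All 12 called rows and all 9 gene sums kept their TMM call and direction under both other pseudocounts, both other filters on the mean, DESeq2 factors, primary chromosomes only, edgeR's test and each library left out (12 and 9 lower and 0 higher throughout). The row JAK2 -427, not called with TMM, was called lower without DMSO replicate 1 (-0.28) and with DESeq2 factors (-0.24), and higher on ribosomal protein promoters (0.56).

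On ribosomal protein promoters the members called among the 12 rows were 4 higher and 3 lower, and values changed sign at IFNAR1 -82 (0.28), JAK1 -265 (0.25) and +549 (0.05), IFNAR2 +358 (0.10), JAK2 +145 (0.07), TYK2 +80 (0.04), SOCS1 -498 (0.34) and SOCS3 +365 (0.09). With cyclic loess 2 were called higher, and IFNAR1 (0.20), SOCS3 (0.10) and SOCS1 -498 (0.01) changed sign. Gene sums on ribosomal protein promoters were 5 higher and 1 lower, with IFNAR1 at 0.28, IFNAR2 0.38, JAK2 0.29, TYK2 0.25, STAT2 0.02 and SOCS3 0.09. IFNAR1 was at 0.06 and IFNAR2 at 0.07 with cyclic loess, and IFNAR2 at 0.02 on the column total, where the rows JAK1 -265 (-0.11) and SOCS1 -498 (-0.02) lost their calls. With the DESeq2 Wald test, whose factors were set on gene sums, IFNAR2 (-0.04), JAK2 (-0.13) and TYK2 (-0.17) lost their calls, as did IL10RA (0.29) without a filter on the mean.

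Of the rows called in no library, the sign changed per 10 M tags at IFNAR2 +784 (0.26), IFNAR2 -210 (0.23) and JAK2 -427 (0.16). On the column total it changed at these rows (0.31, 0.27 and 0.20) and at STAT2 -638 (0.02) and JAK1 +58 (0.03), and on ribosomal protein promoters at the same 5 (0.67, 0.63, 0.56, 0.38 and 0.39). With cyclic loess it changed at JAK1 +1658 (-0.16), PTPN2 +982 (-0.01), TYK2 -454 (-0.07) and IFNAR2 +784 (0.13).

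For the ratio of distant to near rows, 2 to 3 members were called higher and 1 lower with a library left out. With cyclic loess STAT2 turned to -0.40, JAK1 lost its call (-0.04), and PTPN2 (0.37) and IFNAR2 (0.28) kept theirs. With near rows reaching to 1000 bases only JAK1 could be tested, 1 higher and 0 lower (1.05). The ratio to the strongest row called 6 members higher with TMM, against 65.4% of all genes. With cyclic loess STAT2 (-0.28) changed sign and lost its call, JAK1 (-0.11) lost its call, and the other members tested stayed higher. The share of rises among calls over all genes went from 26.2% with TMM to 51.5% per 10 M tags, 55.6% on the column total, 48.5% with cyclic loess, 49.2% with the DESeq2 Wald test and 92.1% on ribosomal protein promoters, and over all rows from 49.9% to 69.7%, 72.2%, 48.1%, 45.1% and 92.8%.

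The same replicate numbers stand in both groups, but the deviations of same-numbered libraries had a correlation of -0.024 over 2 pairs, so the numbers were not taken as pairs. With the replicate number as a block, 12 rows and 9 gene sums were lower and the ratio gave 3 higher and 1 lower, so the block changed no member's call.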
